A study of Mus musculus with 4 samples.

Results

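The matrix metalloproteinases (MMPs), the ADAMTS proteases, the ADAMTS-like proteins and the tissue inhibitors of metalloproteinases (TIMPs) were examined in skin of Tsk1/+ mice. Members were all genes whose array annotation gives 1 symbol of the form Mmp, Adamts, Adamtsl or Timp followed by its number. They came to 46 genes on 74 probes, of 19532 genes and 41174 probes in all: 20 MMP, 17 ADAMTS, 5 ADAMTS-like and 4 TIMP genes. Of the further family genes listed for these roles, Mmp1b, Mmp15, Mmp27, Adamts2, Adamts17 and Adamtsl6 were not analysed here.

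Total RNA of Tsk1/+ skin was hybridised on 4 two-colour arrays, numbered 1-1, 1-2, 2-1 and 2-2 in their titles, each against RNA of a cell line named UMR in the labels. Tsk1/+ mice carry a mutant copy of Fbn1, the gene of the microfibril protein fibrillin-1, and serve as a model of scleroderma. The titles call them transgenic. The labels used here give neither age, sex, strain nor skin site, and are silent on whether the 4 samples are separate animals. The p-values thus rest on the scatter of these samples alone, which could be technical. The wider study set several mouse models beside human scleroderma skin. No wild-type skin was analysed here, so each ratio sets Tsk1/+ skin against cultured cells and shows nothing of what the mutation does.

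A positive log2 ratio stands for a higher level in Tsk1/+ skin than in the reference RNA. Skin RNA is labelled Cy3 and reference RNA Cy5, with no word on which was divided by which. On each array 9 of 11 cornified epidermis genes lay below -1 as deposited, with medians from -6.15 to -5.24, so all signs were turned and the direction is likely rather than stated. Skin carried the same dye on all 4 arrays, so a dye effect and a difference between skin and reference cannot be told apart. With signs turned, all 6 basal keratinocyte, 5 of 7 dermal fibroblast, all 5 adipocyte and all 5 skeletal muscle markers were higher in skin. Of the other fibroblast markers, Twist2 was lower (-1.12; adjusted p = 0.00135) and Pdgfra was at -0.57 and not called. Flg, the filaggrin gene, was listed at 0 on all 4 arrays. All 4 measured proliferation markers were lower. In bulk skin, fewer cells of a type and less RNA per cell cannot be told apart. Across the 46 members, Pearson correlations between pairs of arrays ran from 0.90 to 0.95, as a description of genes that share arrays and reference.

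MMPs are zinc-dependent proteases that cut collagens, gelatins and other matrix proteins, and most are made as inactive precursors. ADAMTS proteases cut proteoglycans such as versican and aggrecan, trim procollagen or process other matrix proteins. ADAMTS-like proteins lack the protease domain and bind matrix, several of them the fibrillin microfibrils. TIMPs block MMPs by binding the catalytic site, and TIMP3 also blocks several ADAMTS proteases. In skin, dermal fibroblasts make much of this system at rest, and wound edges and inflamed dermis are known for collagenase, stromelysin, Mmp9 and Timp1 expression.

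At an adjusted p below 0.05 (limma, Benjamini-Hochberg over all genes) and a mean log2 ratio above 1 or below -1, 11 of the 46 members were higher in Tsk1/+ skin than in the reference and 4 were lower. Those shares, 23.9% and 8.70%, stand beside 11.0% higher and 7.52% lower among all genes tested, so the lower share is near the background. The higher genes were Mmp2, Mmp23, Adamts5, Adamts8, Adamts15, Adamtsl1, Adamtsl4, Adamtsl5, Timp2, Timp3 and Timp4. The lower genes were Mmp9, Mmp11, Mmp13 and Timp1. The median over the members' mean log2 ratios was 0.06, against 0.02 over all genes tested. All 11 higher genes lay above 0 and all 4 lower genes below 0 on every array.

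**Figure D1:**
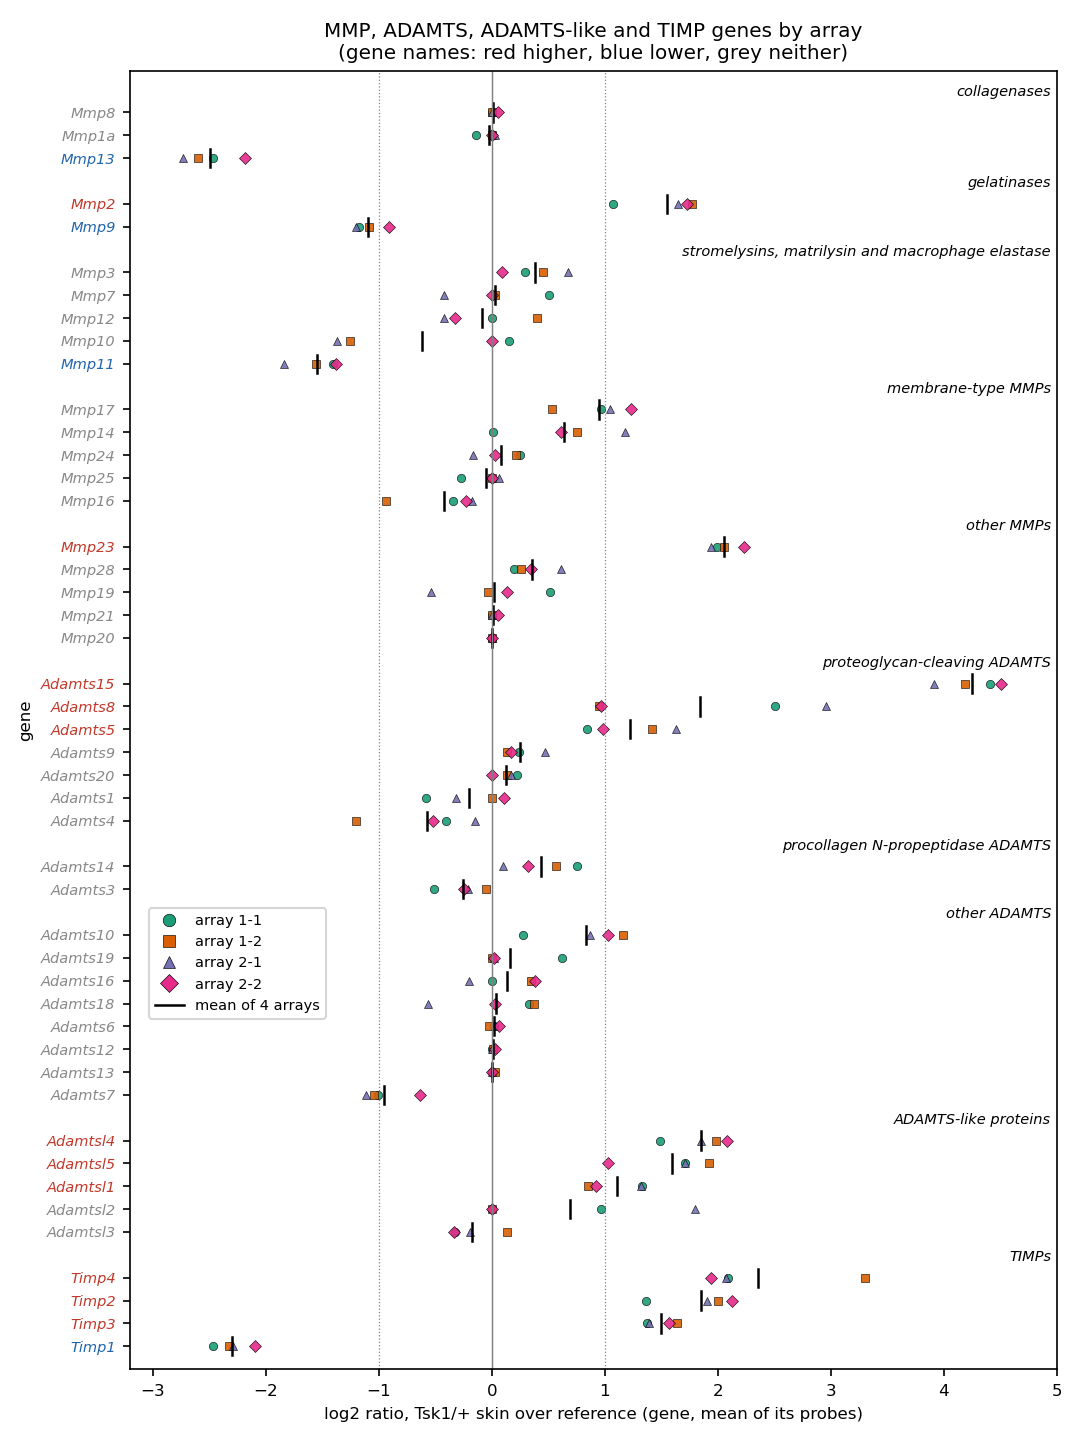
Log2 ratio of Tsk1/+ skin over reference for each of the 46 members, with 1 symbol per array and a bar at the mean of the 4 arrays; dotted lines mark a log2 ratio of -1 and 1. Adamts15 stands farthest to the right, between 3.91 and 4.51, Mmp13 and Timp1 stand farthest to the left, and many members crowd at 0.

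Many members gave little usable signal. Of their 296 probe values, 78 were exact 0 and 210 were either 0 or a value that 20 or more probes of the same array carried. Such values were common on the whole array. Over all probes, 21.4% to 29.1% of an array's values were exact 0, and 59.0% to 67.0% were 0 or shared in this way. For 24 members every value was of that kind, and none of these 24 was called. Among MMPs they were Mmp1a, Mmp7, Mmp8, Mmp10, Mmp12, Mmp16, Mmp17, Mmp19, Mmp20, Mmp21, Mmp24, Mmp25 and Mmp28. The others were Adamts3, Adamts6, Adamts12, Adamts13, Adamts14, Adamts16, Adamts18, Adamts19, Adamts20, Adamtsl2 and Adamtsl3. With zeros and shared values left out, 18 members could be tested. Of these 18, 9 were higher and 5 lower, beside 23.7% higher and 15.6% lower among all genes then tested. Those 14 were the called genes Mmp2, Mmp9, Mmp11, Mmp13, Mmp23, Adamts5, Adamts15, Adamtsl1, Adamtsl4, Timp1, Timp2 and Timp3, joined by Adamts10 on the higher and Adamts7 on the lower side. A ratio at or near 0 among the other members therefore says little about their level in skin.

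**Figure D2:**
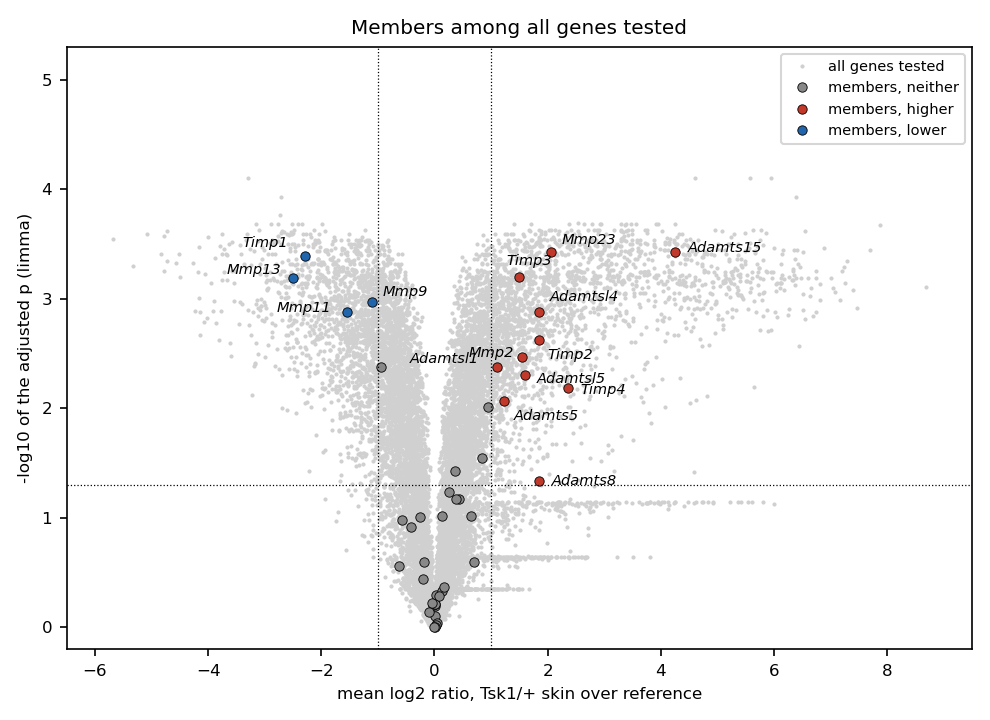
Mean log2 ratio of skin over reference against -log10 of the limma adjusted p for all 19532 genes (grey) and the 46 members (coloured by call); dotted lines mark an adjusted p of 0.05 and a log2 ratio of -1 and 1. The 15 called members are named, and Adamts8 lies just above the p limit at an adjusted p of 0.0465.

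Among the TIMPs, 3 genes were higher in skin and 1 was lower. Timp1, an inhibitor induced in activated fibroblasts and inflamed tissue, stood at -2.47, -2.33, -2.29 and -2.10 on arrays 1-1, 1-2, 2-1 and 2-2, 4.91-fold lower in skin (mean -2.30 ± 0.15, SD, n = 4; adjusted p = 0.000405). Every later ± is likewise an SD over 4 arrays. Its 2 probes gave means of -2.45 and -2.14. Both probes were below -1.8 on every array, so the direction did not rest on 1 probe.

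Timp2, which helps Mmp14 to activate Mmp2 besides inhibiting MMPs, stood at 1.36, 2.01, 1.91 and 2.13 on the 4 arrays in the same order (1.85 ± 0.34; 3.61-fold; adjusted p = 0.00239). Timp3, the TIMP that stays bound to the matrix, stood at 1.37, 1.64, 1.39 and 1.57 (1.49 ± 0.13; 2.82-fold; adjusted p = 0.000633). Timp2 was lowest on array 1-1, while the 4 values of Timp3 lay close together. Timp4, known from heart, muscle and fat, stood at 2.10, 3.31, 2.07 and 1.94 (2.35 ± 0.64; 5.11-fold; adjusted p = 0.00650). Array 1-2 stood apart for Timp4. Once arrays that share a first title number were averaged, its adjusted p was 0.0514 (3.94e-05 to 0.0514 over the alternatives against 0). The lists of adipocyte and skeletal muscle markers had medians of 7.37 and 7.25 on array 2-2 and of 6.11 and 5.98 on array 1-2. The adipocyte markers disagreed: Fabp4 and Lep were higher on array 1-2 (6.11 and 4.01) than on array 2-2 (5.13 and 2.63). Cidec, Plin1 and Adipoq were lower on array 1-2 than on array 2-2. The part of fat or muscle in the Timp4 values was not tested. Of the 4 Timp4 values, 2 were shared by 20 or more probes.

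The gelatinases, which cut denatured collagen and basement membrane collagen, went opposite ways. Mmp2, the gelatinase made by resting fibroblasts, stood at 1.07, 1.77, 1.65 and 1.72 on arrays 1-1, 1-2, 2-1 and 2-2 (1.55 ± 0.33; 2.94-fold higher; adjusted p = 0.00340). Mmp9, the gelatinase of neutrophils, macrophages and activated epithelium, stood at -1.18, -1.09, -1.20 and -0.91 (-1.09 ± 0.14; 2.14-fold lower; adjusted p = 0.00108). The arrays' values of these genes lay on opposite sides of 0 throughout, and both probes of Mmp9 were below 0 on every array. Against a minimum of 2-fold with limma's treat, neither passed (adjusted p = 0.0960 for Mmp2 and 0.663 for Mmp9). The lowest Mmp2 value came from array 1-1, where 5 of the 11 higher members had their lowest ratio, against 2 of 11 on each other array. Dermal fibroblast markers had a median of 1.71 on array 1-1 and 1.70, 1.76 and 1.87 on the other arrays; a part of cell makeup in the Mmp2 value was not tested.

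Of 3 measured collagenases, which cut intact fibrillar collagen, 1 was lower and none was higher. Mmp13, the main interstitial collagenase of mice, stood at -2.47, -2.60, -2.73 and -2.19 on arrays 1-1, 1-2, 2-1 and 2-2, 5.65-fold lower in skin than in the reference (-2.50 ± 0.23; adjusted p = 0.000647). All 4 values were close and far from 0. Mmp8, the neutrophil collagenase, was listed at 0 on arrays 1-1, 1-2 and 2-1 and stood at 0.06 on array 2-2. Mmp1a had a probe listed at 0 on every array and a mean of -0.03 ± 0.08 over its 2 probes.

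Of 5 stromelysins and related secreted MMPs, Mmp11 was lower and the others were not called. Mmp11, stromelysin 3, is known from stroma around tumours and from tissue remodelling. It stood at -1.40, -1.55, -1.84 and -1.38 (-1.54 ± 0.21; 2.91-fold lower; adjusted p = 0.00131). Mmp3, stromelysin 1, stood at 0.30, 0.45, 0.68 and 0.10 (0.38 ± 0.24; adjusted p = 0.0671), all above 0 but small. Mmp10, stromelysin 2, split the arrays: array 2-2 listed it at 0, and the others gave 0.16, -1.25 and -1.37. For Mmp12, the macrophage elastase, array 1-1 listed 0 and arrays 1-2, 2-1 and 2-2 gave 0.40, -0.43 and -0.33. All 4 Mmp12 values were 0 or shared by 20 or more probes. Macrophage markers were higher in skin for 5 of 6 measured genes, and their part in the Mmp12 values was not tested. For Mmp7, matrilysin, array 2-2 listed 0 and the others gave 0.50, 0.03 and -0.43.

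Mmp13, Mmp12, Mmp3, Mmp1a, Mmp10, Mmp8, Mmp20 and Mmp7 lie in this order in 1 cluster of MMP genes on mouse chromosome 9, where the RefSeq annotation (GRCm38.p6) has 10 such genes. Mmp13 at its end was the only one of the 8 measured genes that was called, and the other 7 had means between -0.62 and 0.38. All values of Mmp12, Mmp1a, Mmp10, Mmp8, Mmp20 and Mmp7 were 0 or shared by 20 or more probes of their array. Their ratios therefore say little about their level in skin, and only Mmp3 had unshared values beside Mmp13. An AP-1 site before a TATA box is a layout known for inducible MMP genes. The promoter windows of the 6 cluster genes that hold both motifs are shown because Mmp13 and Mmp3 among them differed in ratio. Mmp8 and Mmp20 held TATAAA but no AP-1 letters. Both strands were searched for TGAGTCA (AP-1, which reads TGACTCA on the other strand) and TATAAA from 250 bases before to 50 after each RefSeq start. Of the 46 members, 31 had such a window, and these had 34 windows between them. Mmp2, Mmp9, Mmp16, Mmp17, Mmp19, Adamts4, Adamts5, Adamts6, Adamts7, Adamts8, Adamts10, Adamts15, Adamts16, Adamts19 and Adamtsl1 had none. The AP-1 letters stood in 6 of the 34 member windows, against 5.20% of 32851 windows of all genes. Those 6 belong to Mmp1a, Mmp3, Mmp7, Mmp10, Mmp12 and Mmp13. The TATAAA letters stood in 11 of the 34 windows, of 11 members, against 13.6% of all windows. Both motifs together stood in 6 of the 34, against 0.941%. The ETS factor letters AGGAAG (PEA3) stood in 15 of the 34 windows, of 14 members, against 35.4% of all windows, and are not capitalised. Family genes of 1 cluster share ancestry and are not independent cases. The 120 bases before the start are given 5′ to 3′ on the gene's strand, with AP-1 and TATAAA matches in capitals (RefSeq, GRCm38.p6).
Mmp13, chr9:7272394-7272513, plus strand: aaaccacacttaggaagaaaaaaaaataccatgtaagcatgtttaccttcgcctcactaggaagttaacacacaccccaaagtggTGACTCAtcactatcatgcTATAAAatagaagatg
Mmp12, chr9:7347254-7347373, plus strand: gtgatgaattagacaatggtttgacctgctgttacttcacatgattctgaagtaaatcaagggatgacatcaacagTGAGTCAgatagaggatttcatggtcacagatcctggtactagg
Mmp3, chr9:7445702-7445821, plus strand: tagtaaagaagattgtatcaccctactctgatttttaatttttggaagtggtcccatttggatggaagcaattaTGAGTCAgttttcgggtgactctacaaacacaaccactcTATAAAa
Mmp1a, chr9:7464021-7464140, plus strand: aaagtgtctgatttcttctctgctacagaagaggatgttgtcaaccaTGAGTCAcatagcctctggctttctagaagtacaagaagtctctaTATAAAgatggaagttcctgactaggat
Mmp10, chr9:7502222-7502341, plus strand: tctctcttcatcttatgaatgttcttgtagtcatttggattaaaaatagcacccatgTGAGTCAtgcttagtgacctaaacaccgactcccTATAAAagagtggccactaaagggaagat
Mmp7, chr9:7691970-7692089, plus strand: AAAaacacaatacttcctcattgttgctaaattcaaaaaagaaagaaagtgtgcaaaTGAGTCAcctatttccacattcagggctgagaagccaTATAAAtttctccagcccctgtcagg

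The annotated start is position 0. In Mmp13 the AP-1 letters began at position -35 and TATAAA at -16 from the annotated start. In Mmp3 they began at -46 and -7, in Mmp1a at -73 and -28, in Mmp10 at -63 and -29, and in Mmp7 at -63 and -26. Mmp12, shown at the later of its 2 annotated starts, had AP-1 letters at -44 and TATAAA only after the start, at position 4. The leading capitals of Mmp7 end a further TATAAA that begins at -123. Mmp13, at a mean log2 ratio of -2.50, and Mmp3, at 0.38, thus carried the same pair of motifs. A match is a description of letters and does not show a factor's binding.

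**Figure D3:**
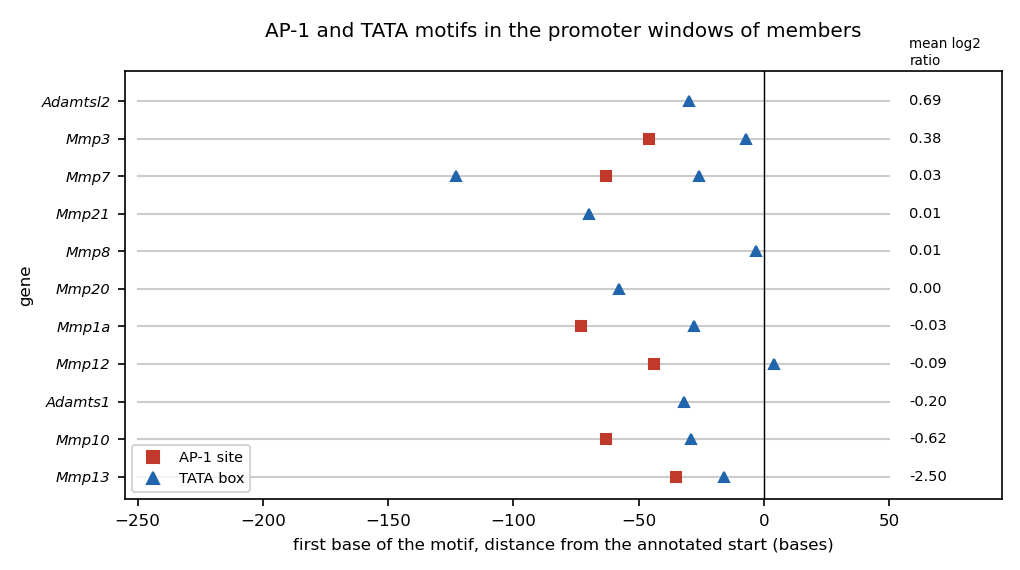
Position of AP-1 (squares) and TATA (triangles) letters in the promoter windows of the 11 members that hold either, as distance in bases from the annotated start, both starts of Mmp7 and Mmp12 drawn on 1 line; members run from the highest to the lowest mean log2 ratio, printed at the right. The 6 genes with squares also hold a triangle and run from 0.38 for Mmp3 to -2.50 for Mmp13.

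The 4 TIMP windows held neither the AP-1 letters nor TATAAA. They are given in the same way, 120 bases each, beside the opposite ratios of Timp1 (-2.30) and of Timp2, Timp3 and Timp4 (1.85, 1.49 and 2.35).
Timp1, chrX:20870046-20870165, plus strand: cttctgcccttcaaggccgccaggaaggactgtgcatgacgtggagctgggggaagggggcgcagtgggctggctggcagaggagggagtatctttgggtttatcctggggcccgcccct
Timp2, chr11:118355412-118355531, minus strand: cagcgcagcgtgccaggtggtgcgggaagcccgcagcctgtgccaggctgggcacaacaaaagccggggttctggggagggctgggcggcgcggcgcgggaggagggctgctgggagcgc
Timp3, chr10:86300292-86300411, plus strand: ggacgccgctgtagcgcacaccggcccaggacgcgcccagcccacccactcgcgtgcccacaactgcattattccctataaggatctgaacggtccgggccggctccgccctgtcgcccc
Timp4, chr6:115252206-115252325, minus strand: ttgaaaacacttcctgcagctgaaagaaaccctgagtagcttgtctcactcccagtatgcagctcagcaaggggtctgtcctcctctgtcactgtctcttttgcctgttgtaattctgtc

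None of the 5 measured membrane-type MMPs, which act at the cell surface, was called. Mmp14, the membrane protease that activates Mmp2, stood at 0.01, 0.75, 1.18 and 0.61 (0.64 ± 0.48; adjusted p = 0.0961). Array 1-1 was again lowest. Mmp17, a membrane MMP anchored by a lipid, stood at 0.96, 0.54, 1.05 and 1.24 (0.95 ± 0.30; adjusted p = 0.00975) and missed the minimum size. One of its 2 probes was listed at 0 on arrays 1-1 and 1-2. With exact zeros left out Mmp17 was at 1.32 (adjusted p = 0.000665; 0.000343 to 0.0760 over the alternatives against 0). Every Mmp17 value was either 0 or shared by many probes of its array, in the sense given above. With all such values left out Mmp17 could not be tested. Mmp16 stood at -0.42 ± 0.35 and Mmp24 at 0.08 ± 0.19. For Mmp25, a neutrophil membrane MMP, array 1-1 gave -0.27, array 2-1 gave 0.07, and the other arrays listed 0. Of 7 measured neutrophil markers none was called higher, S100a8 was lower, and Elane and Csf3r were listed at 0 on every array. S100a9 gave 3.53 on array 1-1, 4.59 on array 2-1 and exact 0 on both others (adjusted p = 0.232).

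Among the remaining MMPs, Mmp23 was the only one called. Mmp23, a membrane-tethered MMP that furin-type enzymes release, stood at 2.00, 2.06, 1.94 and 2.23 (2.06 ± 0.13; 4.16-fold higher; adjusted p = 0.000374). Its spread over the arrays was small beside its size. Mmp28, epilysin, a protease of keratinocytes, had a mean of 0.36 ± 0.18 (adjusted p = 0.0377) and was far below the minimum size. Its probes disagreed, with means of 0.84 and -0.13. Mmp19 stood at 0.51, -0.04, -0.53 and 0.13, on both sides of 0. Mmp20, the enamel protease of teeth, was listed at 0 on all 4 arrays, and Mmp21 was listed at 0 on all but array 2-2 (0.06).

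Of 7 ADAMTS proteases known to cut proteoglycans, 3 were higher and none was lower. Adamts15 had the largest ratio of all members, at 4.41, 4.19, 3.91 and 4.51 on arrays 1-1, 1-2, 2-1 and 2-2 (4.25 ± 0.27; 19.1-fold higher; adjusted p = 0.000370). It rests on 1 probe, whose 4 values lay close together. Adamts8, its direct neighbour on chromosome 9 in RefSeq, was at 2.51, 0.95, 2.96 and 0.97 (1.85 ± 1.04; adjusted p = 0.0465). The first Adamts8 probe gave 3.30 on array 1-1, 3.73 on array 2-1 and exact 0 on both others, while the second gave 1.72, 1.90, 2.19 and 1.93. The second probe alone was higher (1.94; adjusted p = 0.000978 when probes were tested one by one, an alternative chosen after seeing the data), but each of its 4 values was shared by 20 or more probes of its array. The gene lost its call when any array was left out (adjusted p from 0.0826 to 0.156). With exact zeros left out it stood at 2.33 (adjusted p = 0.000103; 4.49e-05 to 0.156 over the alternatives against 0).

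Adamts5, the main aggrecan-cutting enzyme of mouse cartilage, stood at 0.85, 1.42, 1.63 and 0.99 (1.22 ± 0.37; 2.33-fold higher; adjusted p = 0.00862). Its 2 probes had means of 1.19 and 1.25. Without array 1-2 the adjusted p of Adamts5 was 0.0524 (2.68e-05 to 0.0524 over the alternatives against 0). Adamts4, the other aggrecanase, stood at -0.40, -1.20, -0.15 and -0.52 (-0.57 ± 0.45; adjusted p = 0.106), below 0 on every array but not called. Adamts1 stood at -0.20 ± 0.31, Adamts9 at 0.25 ± 0.15 and Adamts20 at 0.13 ± 0.09, all uncalled. Among the substrates listed with them, Vcan, the versican of dermis and hair follicle, was at -0.05 ± 0.06. Hapln3, a link protein, stood at 0.57, 0.19, 0.11 and 0.98 (adjusted p = 0.128). Of the 7 substrates and link proteins, Comp, a cartilage and tendon matrix protein, was higher (1.57 ± 0.36; adjusted p = 0.00408) and the others were not called. Comp stood at 1.715 on array 1-1 and 1.903 on array 1-2. These numbers equal those of the Adamts8 probe whose values were all shared by many probes of their array. The Comp call thus rests in part on shared values. Shared values are not given here gene by gene for genes other than the members.

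The procollagen N-propeptidases trim the amino end of fibrillar procollagens. Adamts14 stood at 0.76, 0.57, 0.10 and 0.32 (0.44 ± 0.28) and Adamts3 at -0.51, -0.05, -0.21 and -0.25 (-0.26 ± 0.19), on opposite sides of 0, and neither was called. Of 7 other genes of procollagen processing, 2 were higher and none was lower. These were Bmp1, the protease that trims the carboxyl end (1.15 ± 0.17; adjusted p = 0.00161), and Pcolce2, an enhancer of that step (3.76 ± 0.11; adjusted p = 0.000237). Mep1b, a meprin, was the most opposite at -0.01 ± 0.11.

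None of the 8 other ADAMTS genes was called. Adamts7, which cuts Comp, was at -1.01, -1.04, -1.12 and -0.63 (-0.95 ± 0.22; adjusted p = 0.00423), just under the minimum size. Without array 2-2 it stood at -1.06 and passed (adjusted p = 0.00425; 0.000117 to 0.0330 over the alternatives against 0). Adamts10, a protease tied to fibrillin microfibrils, stood at 0.28, 1.16, 0.87 and 1.03 (0.84 ± 0.39; adjusted p = 0.0282). Array 1-1 was lowest for Adamts10, and without it the mean was 1.02 (adjusted p = 0.00928; 2.29e-05 to 0.116 over the alternatives against 0). Its 3 probes had means from 0.24 to 1.26. Adamts6, Adamts12, Adamts13, Adamts16, Adamts18 and Adamts19 had means between 0.01 and 0.17. Adamts19 reached 0.62 on array 1-1, against exact 0 on array 1-2 and 0.02 on each remaining array.

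Of the 5 ADAMTS-like genes, 3 were higher and none was lower. Adamtsl4, a fibrillin-1 binding protein whose loss displaces the eye lens, stood at 1.49, 1.98, 1.85 and 2.08 (1.85 ± 0.26; 3.61-fold higher; adjusted p = 0.00131). Adamtsl5 stood at 1.72, 1.92, 1.71 and 1.03 (1.59 ± 0.39; 3.02-fold higher; adjusted p = 0.00494). Of the 4 Adamtsl5 values, 3 were shared by many probes of their array, in the sense given above. With such values left out Adamtsl5 could not be tested. The highest array of Adamtsl4, 2-2, was the lowest of Adamtsl5. Adamtsl1 stood at 1.33, 0.85, 1.32 and 0.93 (1.11 ± 0.25; adjusted p = 0.00424), a mean of 3 probes that disagreed. One probe had a mean of 2.40, another 0.91, and the remaining one was listed at 0 on every array. With the median over probes Adamtsl1 was at 0.74 and lost its call (adjusted p = 0.165; 1e-05 to 0.165 over the alternatives against 0). Adamtsl2, which binds fibrillin microfibrils, split the arrays, with 0.97 on array 1-1, 1.80 on array 2-1 and exact 0 on both others. Adamtsl3 stood at -0.33, 0.14, -0.19 and -0.34 and was not called.

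**Figure D4:**
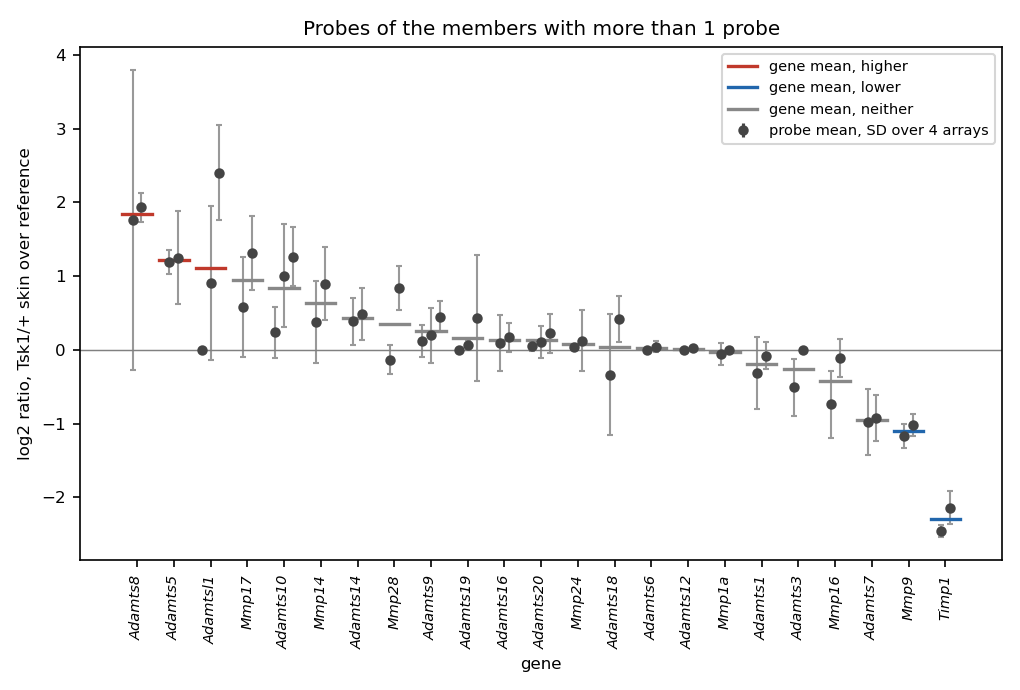
Mean log2 ratio of skin over reference of each probe, with the SD over 4 arrays as bars, for the 23 members with more than 1 probe; coloured lines mark the gene means and their call. The probes of Timp1 and of Mmp9 lie close together, while those of Adamtsl1 run from 0 to 2.40.

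The genes that activate, anchor or otherwise inhibit MMPs were mostly not called: of 16 measured, 2 were higher and 1 was lower. Pcsk6, a furin-like proprotein convertase, stood at 3.43, 2.96, 2.78 and 3.10 (3.07 ± 0.27; adjusted p = 0.000606). Reck, a membrane-anchored MMP inhibitor, stood at 1.39, 1.02, 1.44 and 0.89 (1.18 ± 0.27; adjusted p = 0.00437). Bsg, a surface protein known as an inducer of MMPs, was lower (-1.16 ± 0.27; adjusted p = 0.00444). Of 6 genes of plasminogen activation, 2 were higher and 1 was lower. Serpinb2, an inhibitor of urokinase, stood at 4.41 ± 0.54 (adjusted p = 0.00102) and Plat, tissue plasminogen activator, at 1.01 ± 0.15 (adjusted p = 0.00165). Plaur, the urokinase receptor, was lower, at -1.07 ± 0.16 (adjusted p = 0.00166). An inhibitor and an activator of plasminogen cleavage were thus both among the higher genes.

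Of 9 cathepsins and other matrix proteases, 5 were higher and none was lower. Ctsk, a cysteine protease that cuts collagen, stood at 4.74, 4.22, 4.29 and 4.88 (4.53 ± 0.33; adjusted p = 0.000447). Htra3, a secreted serine protease, stood at 2.86 ± 0.15 (adjusted p = 0.000316). Ctsl, a lysosomal cathepsin, was the most opposite at -0.83 ± 0.19 and was not called. Of 11 ADAM membrane proteases, Adam33 (0.80, 3.47, 3.02 and 1.54 on arrays 1-1, 1-2, 2-1 and 2-2; 2.21 ± 1.25; adjusted p = 0.0472) and Adam17 (1.31 ± 0.39; adjusted p = 0.00856) were higher. Adam33 varied over the arrays more than Adam17 did. Adam8 was the most opposite, at -0.67 ± 0.14, and was not called.

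Cytokines and transcription factors known to drive MMP genes were more often lower than higher: of 14 measured, 7 were lower and 2 were higher. Fosl1, an AP-1 subunit, was lowest, at -3.27, -3.92, -3.74 and -3.41 (-3.58 ± 0.30; adjusted p = 0.000559). Elf3, an epithelial ETS factor, followed at -2.42 ± 0.21 (adjusted p = 0.000596). Il6, Tnf, Fos, Junb and Ets1 were lower too, at means between -2.34 and -1.04. Ets2 was highest, at 1.67 ± 0.04 (adjusted p = 0.000237), and Il1a was higher as well. The median of this list was -0.75, against 0.02 over all genes tested. Any tie between these factors and Mmp13 or Timp1 was not tested.

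**Figure D5:**
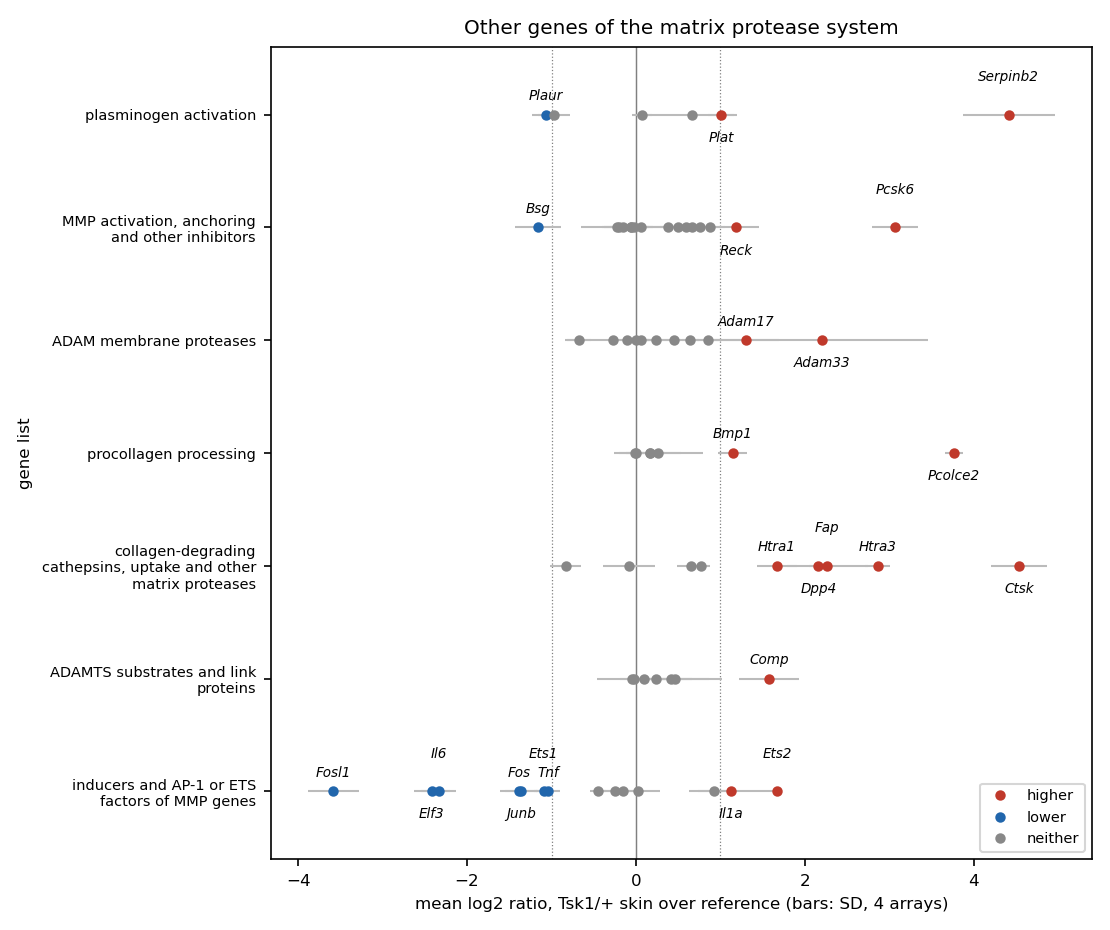
Mean log2 ratio of skin over reference, with SD over 4 arrays as bars, of the other genes of the matrix protease system by list; called genes are named and coloured by call, and dotted lines mark -1 and 1. Ctsk at 4.53 and Serpinb2 at 4.41 stand farthest to the right, and Fosl1 at -3.58 farthest to the left.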

How the data were processed

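RNA of 4 Tsk1/+ skin samples was compared with a common reference on two-colour arrays. The authors deposited 1 log ratio per probe and array, taken here as log2. How they corrected background and normalized, and the base and direction of the ratios, is not given here. Per the labels, skin carried Cy3 and the reference Cy5. Among the 40 commonest values of each array, 21 of 3120 pairs lay 2 times the log of 2 apart on the log2 scale (tolerance 0.001). The natural log had 2 such pairs and log10 had 4. Log2 was taken on these few pairs, with no count expected by chance beside them, so the base is likely rather than stated. All fold values and the minimum size depend on it. Each deposited column had a median of 0, among 21.4% to 29.1% of exact zeros, so the centring step stays unknown.

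Probes with 1 annotated symbol (32664; 45 had several, 8465 none) were averaged per gene, symbols being updated through Entrez IDs (32524 matched). Genes with values on at least 3 arrays went into limma 3.58.1 under R 4.3.3 (lmFit with eBayes, mean against 0, two-sided, Benjamini-Hochberg). The test leaves out the reference's own spread. It was also run on simulated independent normal values. Those held no reference spread, exact zeros or shared values, so that run does not bear on these limits. The number of arrays limits the precision. Exact zeros were kept. Members, lists and alternatives were chosen with earlier results of these data known. Genes were named by role, and in each list of other genes the 2 with the largest ratios in size and the 1 most opposite; other called genes of those lists were named after their values were seen. Figures used matplotlib 3.10.9.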

Additional observations from a re-analysis of the deposited data

Results flagged for a closer look

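Of 45 members with any spread, 6 had 1 array far from the other 3 by Dixon's criterion. Chance alone meets it in about 1 of 20 groups of normally distributed values. That rate does not hold for members with exact zeros or shared values, so the count of 6 cannot be set against it. Mmp2 stood at 1.07 on array 1-1, against 1.65 to 1.77 on the others. Timp4 stood at 3.31 on array 1-2, against 1.94 to 2.10 on the others. Adamts19 stood at 0.62 on array 1-1, against 0 to 0.02 on the others. Adamts13 on array 1-2 (0.027) and Mmp8 and Mmp21 on array 2-2 (0.057 each) were listed at 0 on the other 3 arrays. Beside 3 exact zeros, a value of any size is flagged.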

How the results depend on the processing

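Of the 15 calls, 8 held in all 18 alternatives: Mmp11, Mmp13, Mmp23, Adamts15, Adamtsl4, Timp1, Timp2 and Timp3. Dropping the minimum size, 1 of these alternatives, could not remove a call. Limma's treat against a 2-fold change called 5 members higher and 3 lower. Leaving out 1 array gave 10 to 11 higher and 4 to 5 lower members. In the other settings the counts ran from 9 to 14 higher and from 4 to 5 lower, with 14 higher when no minimum size was set. No called member changed its direction. Among values of single members under the alternatives, 736 kept their side of the limit, 16 lost a call and 15 gained one. Under treat Adamts5, Adamts8, Adamtsl1, Adamtsl5, Mmp2, Mmp9 and Timp4 lost theirs, as its construction sets a stricter null. Adamts8 lost its call in 7 of 17 alternatives, among them the median over probes (adjusted p = 0.0510) and limma with trend and robust options (adjusted p = 0.0548). With no minimum size Adamts7, Adamts10, Mmp17 and Mmp28 gained calls by construction, since size was the only limit they had missed. The cause of the other lost or gained calls was not tested. Leaving out values carried by 100 or more probes of an array, chosen after seeing the data, gave 13 higher and 4 lower of 27 testable members. The title numbers as random blocks left the member counts at 11 and 4 and gave 2327 higher and 1487 lower genes (first number) or 2299 and 1484 (second), with consensus correlations of -0.31 and -0.26. Negative correlations tend to shrink the standard error of the mean, so a call kept under these blocks adds little. Over all genes, 2150 higher and 1468 lower became 1338 and 694 under treat, and 4534 and 3870 with no minimum size.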
